A study of Mus musculus with 12 samples.

Results

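The Hox genes are the homeobox genes of the HoxA, HoxB, HoxC and HoxD clusters, and their transcripts were followed in mouse embryonic fibroblasts on day 7 of reprogramming. Members were taken by name from the deposited gene table, as all protein-coding rows with the symbol Hoxa, Hoxb, Hoxc or Hoxd and a number. This gave 39 of the 24207 genes in the table, and all 39 of the Hox genes in the GENCODE vM21 annotation of GRCm38. HoxA held 11 members (chromosome 6), HoxB 10 (chromosome 11, 96194316 to 96368256), HoxC 9 (chromosome 15, 102921103 to 103036852) and HoxD 9 (chromosome 2, 74668310 to 74765142), with coordinates as the deposited table gives them.

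RNA was sequenced in 12 libraries, in 4 groups of 3. Cells of every group were C57BL/6 fibroblasts that carried FUW-OSKM, a lentiviral construct for Oct4, Sox2, Klf4 and c-Myc, and FUW-M2rtTA, which encodes the activator that doxycycline switches on. The uninduced cells had a scrambled hairpin and no doxycycline. The induced controls had the scrambled hairpin and doxycycline, the Trim28 knockdown had doxycycline and a hairpin against Trim28, and the double knockdown had doxycycline and hairpins against both Trim28 and Setdb1. The Trim28 protein is a corepressor brought to DNA by zinc finger proteins, and Setdb1 is the histone H3 lysine 9 methyltransferase that works with it. All cells were kept for 7 days in ES cell medium on a layer of irradiated MEFs. These feeder cells are fibroblasts too, the labels do not say whether they were removed, and Hox RNA of feeder cells and of the studied cells cannot be told apart. The labels do not give separate cultures or embryos for the replicates, so the p-values measure the spread between these libraries, which may be technical.

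Hox genes encode homeodomain transcription factors that give cells their address along the body axes. Within each cluster, genes with low paralogue numbers lie at the 3' end and are used early and towards the head, and genes with high numbers lie at the 5' end and are used later and towards the tail and the tips of the limbs. Polycomb proteins keep the clusters silent where they are not used, as in embryonic stem cells, and trithorax proteins keep them active. In human adult fibroblasts the Hox genes in use are known to differ with the site of the body from which the cells came.

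Libraries held 11906701 to 19191649 counted reads, the fewest in replicate 2 of the induced controls, and 3 counts were worth 0.156 to 0.252 counts per 1e6 counts. CPM values are counts per 1e6 counts with library sizes scaled by TMM factors. Hox genes took 0.0272% to 0.0423% of the counts. Against the induced controls, the hairpins' targets were lower as labelled. Trim28 had 328 ± 38.3 CPM (SD, n = 3) in the induced controls, 58.5 ± 5.95 in the Trim28 knockdown and 103 ± 6.41 in the double knockdown. For Setdb1 these values were 81.3 ± 4.27, 122 ± 1.36 and 63.1 ± 8.21, so the Trim28 knockdown lay above the controls. Setdb1 in the double knockdown (54.1 to 70.1) overlapped its uninduced level (60.7 ± 4.29, range 56.8 to 65.3). Trim28 in both knockdowns lay below its uninduced level of 249 ± 24.9. The double knockdown therefore differed from the Trim28 knockdown in less Setdb1 and also in more Trim28 transcript, and their parts in any difference between these groups cannot be told apart.

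The bases before the start sites of the members that changed in a knockdown comparison are shown here, because the hairpins' targets act on chromatin and the members differ widely in CG content. The RefSeq promoter table (GRCm38.p6) matched 22 of the 39 members by symbol, with 24 start sites. Of the members that changed in a knockdown, it held Hoxa9 (chr6:52227371-52227620, minus strand), Hoxb4 (chr11:96318017-96318266, plus strand), Hoxb8 (chr11:96281655-96281904, plus strand), Hoxc4 (chr15:103034145-103034394, plus strand) and Hoxd13 (chr2:74667975-74668224, plus strand). The windows of Hoxa9 and Hoxc4 lie inside the spans that the deposited table gives these genes. Each line gives the 250 bases before the start, 5' to 3' on the gene's strand, with CG dinucleotides in capitals.
Hoxa9: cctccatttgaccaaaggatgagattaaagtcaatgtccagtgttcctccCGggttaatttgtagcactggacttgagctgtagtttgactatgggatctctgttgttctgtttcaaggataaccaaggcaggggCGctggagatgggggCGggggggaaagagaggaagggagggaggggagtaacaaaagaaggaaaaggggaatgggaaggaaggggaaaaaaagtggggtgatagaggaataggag
Hoxb4: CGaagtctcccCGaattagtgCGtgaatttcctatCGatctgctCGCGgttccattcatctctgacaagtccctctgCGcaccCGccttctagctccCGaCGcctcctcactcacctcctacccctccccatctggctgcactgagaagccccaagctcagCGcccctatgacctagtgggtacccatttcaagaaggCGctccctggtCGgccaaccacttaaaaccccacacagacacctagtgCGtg
Hoxb8: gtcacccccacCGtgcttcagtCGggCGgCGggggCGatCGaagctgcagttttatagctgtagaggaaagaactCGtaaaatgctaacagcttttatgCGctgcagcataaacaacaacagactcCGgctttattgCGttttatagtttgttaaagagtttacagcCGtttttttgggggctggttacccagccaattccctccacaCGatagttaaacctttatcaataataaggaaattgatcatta
Hoxc4: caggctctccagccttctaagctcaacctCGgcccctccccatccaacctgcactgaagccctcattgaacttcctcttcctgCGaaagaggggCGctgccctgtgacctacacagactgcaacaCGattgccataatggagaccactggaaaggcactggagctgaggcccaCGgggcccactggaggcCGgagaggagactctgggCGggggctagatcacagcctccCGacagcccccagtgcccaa
Hoxd13: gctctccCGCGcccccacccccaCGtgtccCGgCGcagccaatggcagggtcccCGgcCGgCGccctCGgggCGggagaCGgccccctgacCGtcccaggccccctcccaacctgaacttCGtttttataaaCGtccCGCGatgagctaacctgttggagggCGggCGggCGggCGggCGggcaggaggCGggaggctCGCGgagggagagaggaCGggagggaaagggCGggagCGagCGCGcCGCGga
The Hoxa9 window held 3 CG dinucleotides, the Hoxc4 window 8, Hoxb8 12, Hoxb4 14 and Hoxd13 31. Over the 24 Hox windows the median was 12.5 (range 2 to 35), against 6 over the 32851 windows of the whole table, and the median GC content was 58.6% against 52.4%. The E-box CACGTG, the core sequence that Myc binds, occurred in 4 of the 24 Hox windows (16.7%, at Hoxd1, Hoxd10, Hoxd11 and Hoxd13, all in HoxD) and in 6.02% of all windows. This motif contains a CG, of which the Hox windows held more, so the 2 shares do not come from like windows. The octamer ATGCAAAT, which Oct4 binds, occurred in 0 of the 24 and in 1.60% of all windows. The Klf-type motif GGGTGTGG was found in 1 Hox window (4.17%, at Hoxa2) and in 3.20% of all. TATAAA was found in 4 Hox windows (16.7%, at Hoxa10, Hoxb8, Hoxd4 and Hoxd13) and in 12.4% of all. Both strands were searched, and a match is a description of these letters, not of a site in use.

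The fibroblasts used Hox genes of all 4 clusters. Levels between genes are given as CPM per kilobase of exon. Hoxb9, which patterns the thoracic skeleton, was the highest Hox gene in every group, at 24.3 CPM per kilobase in the uninduced cells, 11.7 in the induced controls, 14 in the Trim28 knockdown and 20.3 in the double knockdown. Next in the uninduced cells came Hoxc8 at 14.8, Hoxc6 at 14.5 and Hoxc10 at 13 CPM per kilobase, all of which act in the trunk and lumbar region, and then Hoxa10 at 9.0. The lowest were Hoxb1, Hoxb13, Hoxc12, Hoxd1 and Hoxd3, which all lay at or under 0.137 CPM per kilobase in the uninduced cells. In the induced controls the order below Hoxb9 was Hoxc10 (9.60), Hoxc6 (8.15), Hoxa10 (6.01) and Hoxc8 (5.67), so that Hoxc8 went from rank 2 to rank 5 of the 39.

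**Figure D1:**
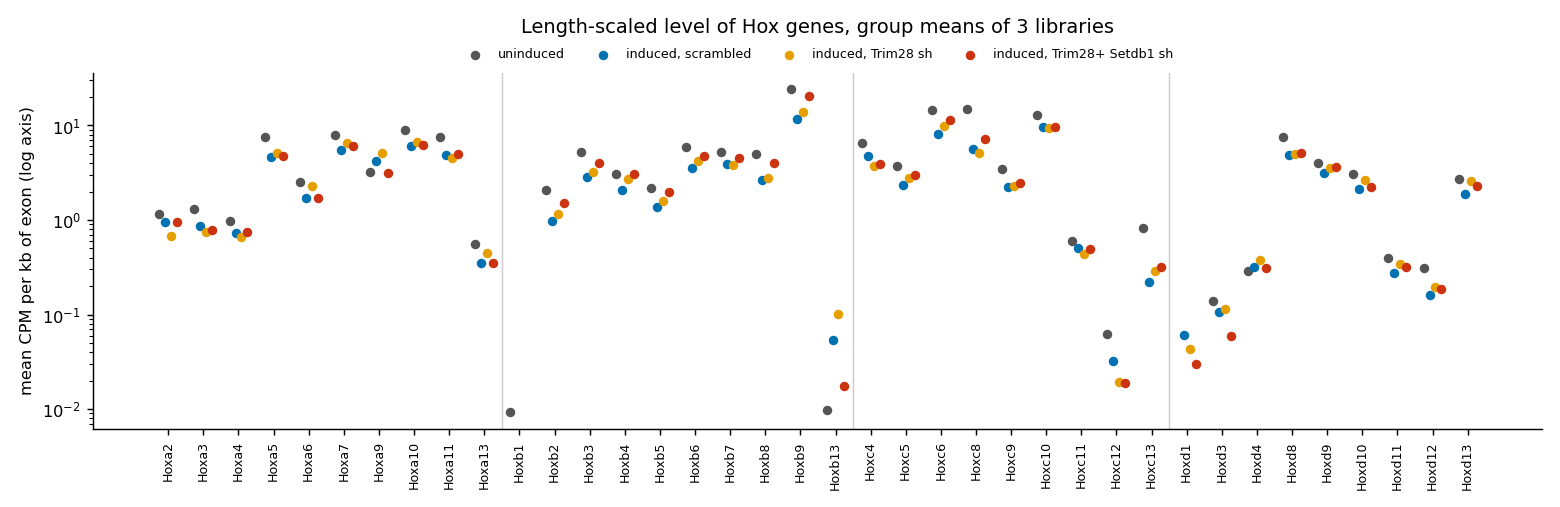
Mean level of 38 of the 39 Hox genes in CPM per kilobase of exon (log axis) in the 4 groups, ordered by cluster and paralogue number; a mean of 0, as for Hoxd1 in the uninduced cells, is not drawn. Hoxb9 is the highest gene in all groups, from 11.7 to 24.3, and Hoxb1, Hoxb13, Hoxc12, Hoxd1 and Hoxd3 are the lowest.

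Of the 39 members, 34 passed the filter on low counts and were tested. The other 5 had few reads, given here as sums over the 3 libraries of the uninduced cells, induced controls, Trim28 knockdown and double knockdown in that order. Hoxd3 had 27, 23, 24 and 13 reads, Hoxb13 had 1, 6, 11 and 2, Hoxc12 had 3, 2, 1 and 1, and Hoxb1 had 1, 0, 0 and 0. Hoxd1 had 0, 6, 4 and 3 reads, and 5 of its 6 reads in the induced controls came from replicate 1. Of all members, 19 overlap another row of the table, the rows of Hoxa3 and Hoxc5 span several neighbours, and a row spelled HOXD3 overlaps Hoxd3 and Hoxd4. No source used here says whether reads were counted by strand, so reads of overlapping and antisense genes cannot be told apart.

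Induction of OSKM lowered most Hox transcripts. Against the uninduced cells, 25 of the 34 tested members fell in the induced controls and 1 rose, while 8 did not pass the test (edgeR quasi-likelihood test, Benjamini-Hochberg adjusted p under 0.05 over 14520 genes). Over all genes tested, 32.6% fell and 32.7% rose. The median log2 change was -0.58 over the tested members and -0.02 over all genes. Summed over the 39 members, the uninduced libraries held 444, 444 and 449 CPM of Hox transcript, and the induced controls 309, 262 and 269 CPM. No induced control reached the uninduced libraries, and replicate 1 was the highest of the induced controls. As a share of the uninduced mean, the induced controls kept 54.3% ± 7.08 (SD, n = 3) of HoxB, 56.9% ± 6.47 of HoxC, 69.5% ± 2.69 of HoxD and 77.5% ± 5.18 of HoxA. The induction calls of 5 members ended when some single libraries were left out. For Hoxa13 any library but replicate 1 of the uninduced cells ended it (adjusted p = 0.0652 to 0.192). For Hoxb4 these were replicates 1 and 2 of the uninduced cells (adjusted p = 0.0636 and 0.0577), and for Hoxd10 replicate 2 of the uninduced cells (0.058). For Hoxb7 they were replicates 2 and 3 of the uninduced cells (0.139 and 0.122) and 1 and 3 of the controls (0.198 and 0.0743), and for Hoxd12 replicates 1 and 2 of the uninduced cells (0.0855 and 0.0901) and 1 and 3 of the controls (0.0546 and 0.156). Of these, Hoxa13, Hoxb7 and Hoxd12 also did not pass in DESeq2 (0.141, 0.0694 and 0.111), Hoxa13 and Hoxb7 with RLE scaling (0.0583 and 0.0617) or with only the compared groups in the fit (0.0875 and 0.082), and Hoxa13 and Hoxd12 with no filter (0.0886 and 0.0562). In limma-voom Hoxa13 did not pass either (0.0708). In bulk RNA, fewer cells that express a gene and less of its RNA per cell cannot be told apart.

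The Trim28 knockdown changed few Hox genes, and most of the members that rose in the double knockdown were in HoxB. In the Trim28 knockdown, 2 of the 34 tested members rose against the induced controls (Hoxa9 and Hoxd13) and 1 fell (Hoxc4), where 13.1% of all tested genes rose and 11.8% fell. With both hairpins 9 rose and 1 fell against the same controls, where 18.1% of all tested genes rose and 18.6% fell. Of the 9 that rose, 7 were among the 8 tested HoxB members (Hoxb2, Hoxb3, Hoxb4, Hoxb5, Hoxb6, Hoxb8 and Hoxb9), and the other two were Hoxc6 and Hoxc8. The 26 tested members outside HoxB gave 2 rises and 1 fall, with a median log2 change of 0.04 against 0.52 in HoxB, and no test of the difference between clusters was made. By cluster the other medians were 0.23 in HoxC (6 of 8 above 0), 0.17 in HoxD (7 of 7 above 0) and 0.01 in HoxA (6 of 11 above 0). Between the double and the Trim28 knockdown, Hoxb8, Hoxb9 and Hoxc8 were higher and Hoxa9 was lower in the double knockdown, where 10% of all tested genes were higher and 11.7% lower. The log2 change between these groups was above 0 in 8 of 8 tested HoxB members, 8 of 8 in HoxC, 4 of 11 in HoxA and 2 of 7 in HoxD. The comparisons of induction and of both knockdowns all use the same 3 induced controls, so a low value there gives a fall with induction and a rise in a knockdown together, and their values are not independent.

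**Figure D2:**
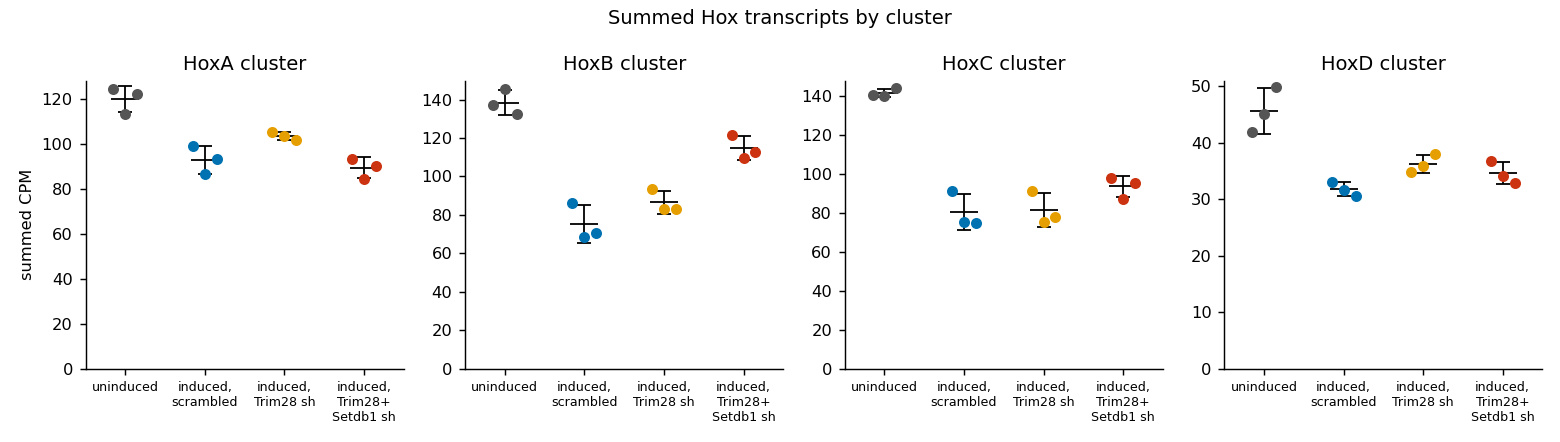
Summed CPM of the members of each cluster in each library (points), with the mean and SD of 3 libraries (bars). HoxB runs from 132 to 146 CPM in the uninduced cells, 68.6 to 86.4 in the induced controls, 82.9 to 93.6 in the Trim28 knockdown and 109 to 122 in the double knockdown, while HoxA in the double knockdown (84.2 to 93.4) overlaps the induced controls (86.5 to 98.9).

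Among HoxB genes, all 8 that were tested fell with induction, by log2 changes of -0.44 to -1.09, and in the double knockdown 7 of these 8 rose by 0.41 to 0.78. Hoxb9 had 59.5, 65.9 and 62.1 CPM in the uninduced libraries and 36.7, 27.1 and 27.0 in the induced controls. In the Trim28 knockdown its values were 41.6, 34.0 and 32.4 CPM, and in the double knockdown 58.0, 48.0 and 50.5 CPM. The induced controls lay below every uninduced library, the Trim28 knockdown overlapped them, and the double knockdown lay above both. Hoxb9 fell 2.06-fold with induction (log2 change -1.04 ± 0.12, SE, adjusted p = 1.04e-06) and was 1.72-fold higher in the double knockdown than in the induced controls (0.78 ± 0.12, adjusted p = 1.01e-04). It was also higher in the double than in the Trim28 knockdown (0.53 ± 0.12, adjusted p = 0.00429), while the Trim28 knockdown itself did not pass against the controls (0.25 ± 0.12, adjusted p = 0.156). Without replicate 1 of the induced controls, which had the most Hoxb9 of the 3, this last change was 0.40 with an adjusted p of 0.0151.

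Hoxb8, which acts in the thoracic and cervical axis and in myeloid progenitors, had 13.8, 12.3 and 12.9 CPM in the uninduced cells and 7.89, 6.56 and 6.56 in the induced controls. The Trim28 knockdown held 8.38, 7.09 and 6.42 CPM and the double knockdown 11.9, 9.81 and 9.64. As for Hoxb9, the double knockdown stood between the induced and the uninduced libraries without overlap with either. Its fall with induction was -0.89 ± 0.13 on the log2 scale (adjusted p = 1.64e-05) and its rise in the double knockdown 0.57 ± 0.13 (adjusted p = 0.00295), and it was 0.52 ± 0.13 higher than in the Trim28 knockdown (adjusted p = 0.00993). This last call was lost without replicate 3 of the Trim28 knockdown (adjusted p = 0.061) or without replicate 1 of the double knockdown (adjusted p = 0.0637). Hoxb3, a gene of the hindbrain and pharyngeal arches, had 24.5, 23.3 and 18.9 CPM in the uninduced cells and 16, 9.16 and 11.3 in the induced controls. It had 14.2, 12.8 and 13.8 CPM in the Trim28 knockdown and 18.4, 16.9 and 16.1 in the double knockdown. The double knockdown lay just above the highest induced control, which was replicate 1, and the rise of 0.49 ± 0.15 (adjusted p = 0.0211) did not pass without replicate 2 of the controls (adjusted p = 0.078), without their replicate 3 (0.0918) or without replicate 1 of the double knockdown (0.0757).

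In the other tested HoxB members too, the mean of the double knockdown lay above that of the induced controls. Hoxb2, a hindbrain gene, had means of 7.16 CPM in the uninduced cells, 3.41 in the induced controls, 4.05 in the Trim28 knockdown and 5.28 in the double knockdown, with log2 changes of -1.09 ± 0.16 for induction (adjusted p = 1.23e-05) and 0.65 ± 0.16 for the double knockdown (adjusted p = 0.00469). Hoxb5 went from 6.11 to 3.84 CPM with induction and stood at 5.46 CPM in the double knockdown, a rise of 0.50 ± 0.13 (adjusted p = 0.00747). Hoxb4, known from its effect on blood stem cells, and Hoxb6 rose in the double knockdown by 0.54 ± 0.18 and 0.41 ± 0.14 (adjusted p = 0.0251 and 0.026). Both calls were lost when any of 4 of the 6 libraries was left out. Hoxb7 fell with induction by 0.44 (adjusted p = 0.0458) and was the member that did not pass in the double knockdown, at 0.22 ± 0.18. With RLE scaling, in DESeq2 or with only the compared groups, 7 of the 8 fell with induction. Leaving out 1 library at a time left 4 to 6 HoxB rises in the double knockdown, the fewest without replicate 2 of the induced controls. The Trim28 knockdown gave no HoxB call in edgeR, with 0 of 8 at an unadjusted p under 0.05 and 0 calls in DESeq2 and limma-voom, and its median log2 change was 0.20, positive in 7 of 8.

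**Figure D3:**
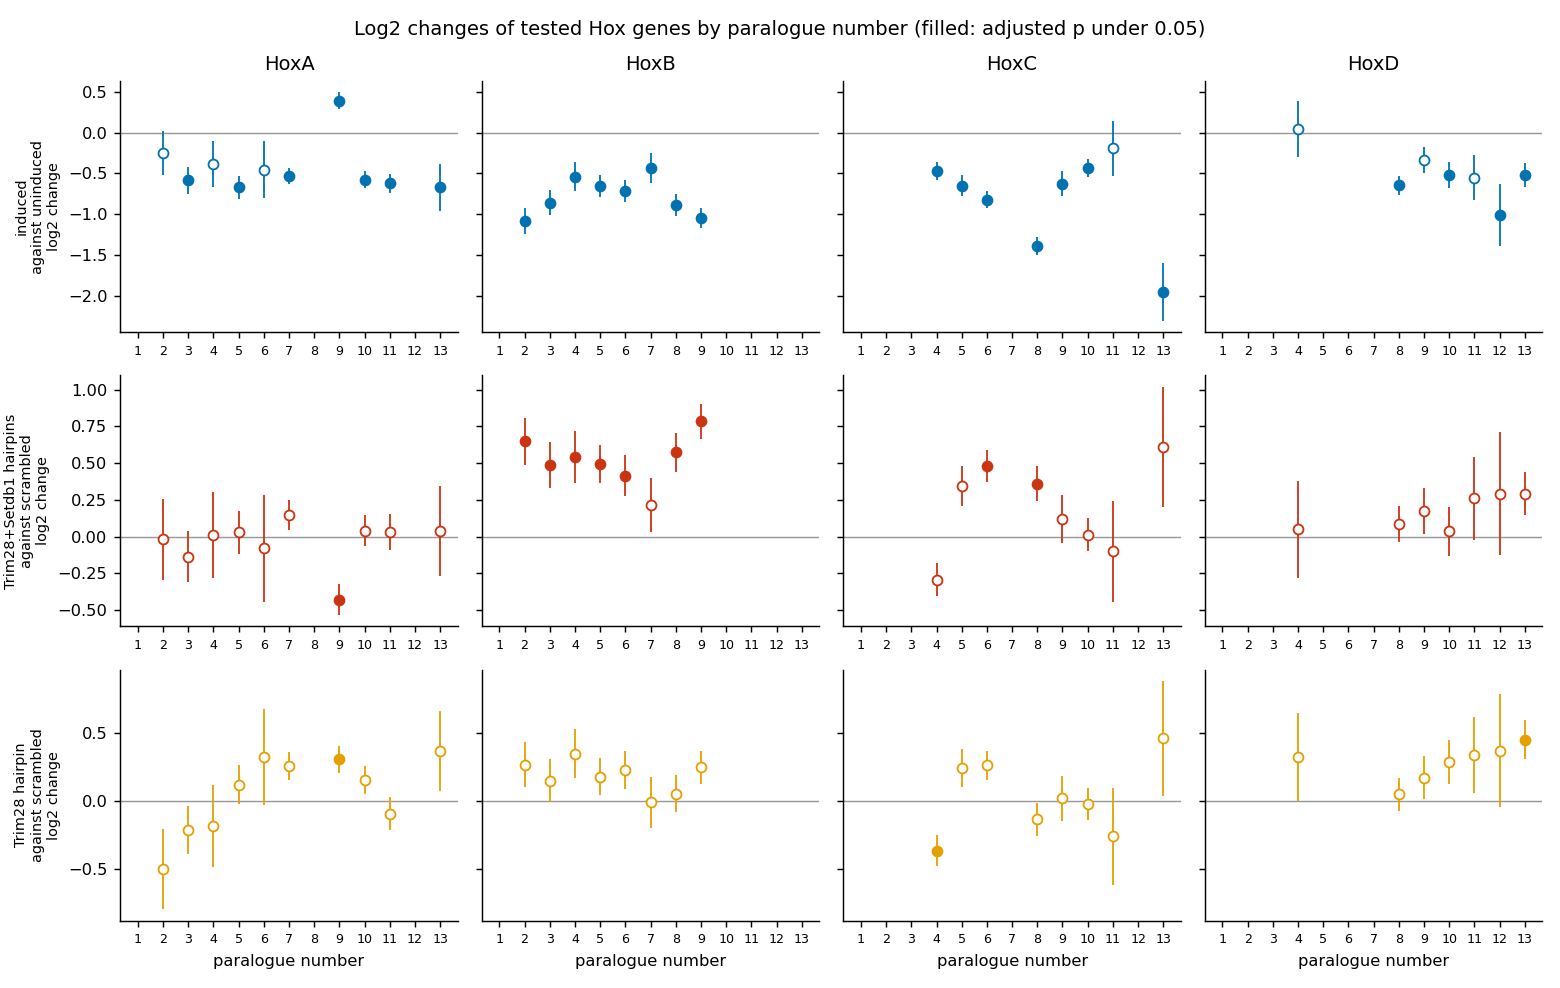
Log2 change of 33 of the 34 tested Hox genes against paralogue number for induction, the double knockdown and the Trim28 knockdown, with the SE of the edgeR fit as bars and filled points for an adjusted p under 0.05. In HoxB all 8 points are below 0 for induction and all 8 above 0 for the double knockdown; the vertical scale differs between the rows.

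HoxC held the Hox genes with the largest log2 falls, Hoxc13 and Hoxc8. With induction 7 of its 8 tested members fell, by log2 changes of -0.43 to -1.96, and in the double knockdown 2 of the 8 rose. Hoxc8, which shapes the thoracic ribs and the motor neurons of the forelimb, had 39.5, 40.6 and 46.0 CPM in the uninduced cells. It had 18.2, 16.4 and 13.5 CPM in the induced controls, 15.8, 14.4 and 13.5 in the Trim28 knockdown and 21.2, 18 and 22.5 in the double knockdown. All 9 induced libraries lay far below the uninduced ones, and the double knockdown overlapped the controls at its lowest library. The fall with induction was 2.62-fold (-1.39 ± 0.12, adjusted p = 2.07e-08), which was the smallest p of any Hox gene. The rise in the double knockdown was 0.36 ± 0.12 (adjusted p = 0.0255) and ended when replicate 3 of the controls was left out (0.23, adjusted p = 0.158) or replicate 1 or 3 of the double knockdown (adjusted p = 0.0757 and 0.121), or when the fit held only the compared groups (0.0591). Against the Trim28 knockdown it was 0.50 ± 0.12 (adjusted p = 0.00728), with no overlap.

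Hoxc6, which acts in the thoracic region and the mammary gland, had 36.3, 35.9 and 32.2 CPM in the uninduced cells and 23.0, 17.7 and 18.2 in the induced controls. Its values were 25.6, 21.6 and 23.5 CPM in the Trim28 knockdown and 29.1, 25.3 and 28 in the double knockdown. The double knockdown did not overlap the controls, and the rise of 0.48 ± 0.11 (adjusted p = 0.00221) was called under every alternative setting run. In the Trim28 knockdown the change of 0.26 ± 0.11 did not pass (adjusted p = 0.09), and without replicate 1 of the controls it was 0.38 with an adjusted p of 0.0143. Hoxc4 took the other direction. It had 16.1, 17.9 and 16.8 CPM in the uninduced cells, 13.2, 11.7 and 11.8 in the induced controls, 10.9, 8.04 and 9.63 in the Trim28 knockdown and 9.83, 9.81 and 10.4 in the double knockdown. Both knockdowns lay below all 3 controls. The fall in the Trim28 knockdown was 0.37 on the log2 scale (SE 0.12, adjusted p = 0.0279) and did not pass without replicate 1 of the controls (adjusted p = 0.0758), without replicate 2 or 3 of the knockdown (0.144 and 0.0611), or with only the libraries of the compared groups in the fit (0.0652). With both hairpins the change was -0.29 ± 0.11 and did not pass (adjusted p = 0.0558), though it passed with RLE or upper-quartile scaling (0.0394 and 0.045) and in DESeq2 (0.0495).

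Hoxc13, known for its part in hair and nails, was a low gene with the largest log2 fall of the family, from 2.00 ± 0.413 to 0.538 ± 0.218 CPM (-1.96 ± 0.35, adjusted p = 1.24e-04). It had 0.711 ± 0.266 CPM in the Trim28 knockdown and 0.787 ± 0.297 in the double knockdown, and neither passed against the controls. Hoxc10, a lumbar and hindlimb gene, had 25.5, 21.8 and 27.1 CPM in the uninduced cells and 20.4, 16.3 and 18.3 in the induced controls, a fall of 0.43 (SE 0.11, adjusted p = 0.00315). Its values of 20.6, 16.9 and 16.9 CPM in the Trim28 knockdown and 20.1, 18.3 and 17.4 in the double knockdown overlapped the controls. Hoxc5 and Hoxc9 fell with induction by 0.65 and 0.62 on the log2 scale, and Hoxc11, at about 1 CPM in all groups, did not pass in any comparison.

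HoxA held the member that rose with induction. In that comparison 1 of its 11 members rose and 6 fell, 4 did not pass, and in the double knockdown 1 fell and none rose in edgeR, with 0 rises at an unadjusted p under 0.05 and 0 in DESeq2 and limma-voom. Hoxa9, a regulator of blood progenitors, had 17.6, 15.4 and 20.4 CPM in the uninduced cells and 22.3, 23.5 and 24.2 in the induced controls. In the Trim28 knockdown it had 30.3, 29.2 and 27.0 CPM, and in the double knockdown 18.7, 15.7 and 17.6. The controls lay above the uninduced cells and the Trim28 knockdown above the controls, while the double knockdown lay in the range of the uninduced cells. The change was 0.39 ± 0.10 with induction (adjusted p = 0.00369), 0.31 ± 0.10 in the Trim28 knockdown (adjusted p = 0.0343) and -0.43 ± 0.10 in the double knockdown (adjusted p = 0.0042). Between the double and the Trim28 knockdown it was -0.74 ± 0.10, 1.66-fold lower (adjusted p = 1.14e-04). The rise in the Trim28 knockdown did not pass when any of the 6 libraries was left out (adjusted p = 0.0504 to 0.134) or with upper-quartile scaling (0.0566), and the other 3 calls passed under every alternative run.

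Hoxa10, which acts in the uterus and lumbar axis, had 31.2, 27.4 and 29.7 CPM in the uninduced cells and 22.2, 17.4 and 19.4 in the induced controls. The Trim28 knockdown held 22.5, 20.2 and 23.1 CPM and the double knockdown 22.4, 18.4 and 20. It fell with induction by 0.58 (SE 0.10, adjusted p = 1.25e-04), and both knockdowns overlapped the controls. Hoxa7 had 23.9, 21.9 and 23.0 CPM in the uninduced cells, 15.4, 16.1 and 16.1 in the controls, 17.1, 19.2 and 20.7 in the Trim28 knockdown and 19.0, 15.2 and 18.6 in the double knockdown. Its fall with induction was 0.53 (SE 0.10, adjusted p = 2.43e-04), and the Trim28 knockdown lay above the controls without passing (0.26 ± 0.10, adjusted p = 0.0782). Hoxa3, Hoxa5, Hoxa11 and Hoxa13 fell with induction by log2 0.58 to 0.67. The call of Hoxa13, a gene of the hand and foot plates, had an adjusted p of 0.0492 and was lost in 10 of the 13 alternatives that tested it. Hoxa2, Hoxa4 and Hoxa6, with means of 1.05 to 2.18 CPM over the groups, did not pass in any comparison.

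**Figure D4:**
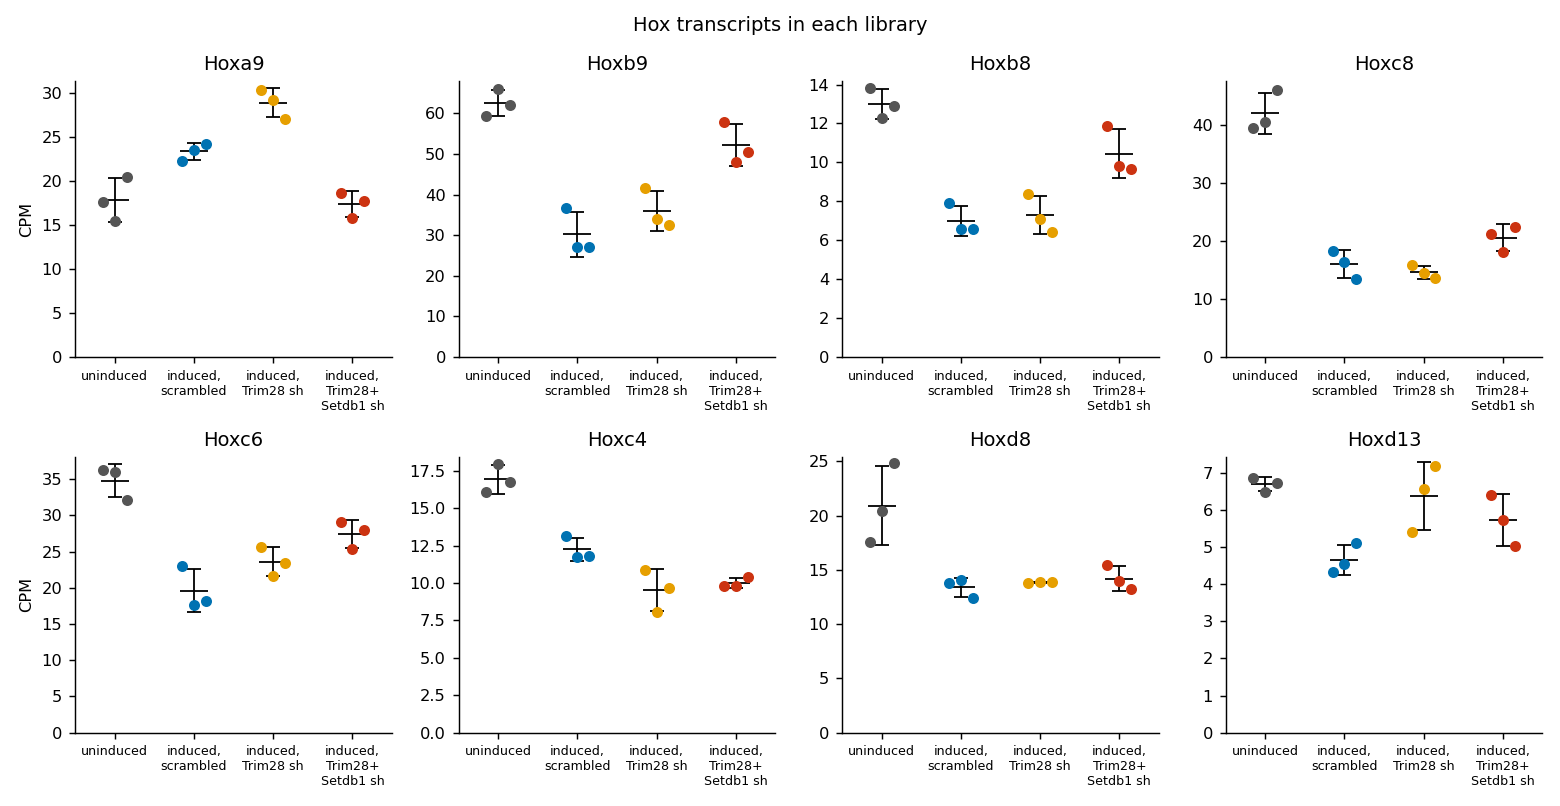
CPM of 8 Hox genes in each library (points), with mean and SD of 3 libraries (bars), each panel on its own scale from 0. Hoxb9, Hoxb8 and Hoxc6 are higher in the double knockdown than in the induced controls, whereas Hoxa9 is lower (15.7 to 18.7 against 22.3 to 24.2) and Hoxc8 stays below 23 CPM in all induced libraries against 39.5 to 46.0 in the uninduced ones.

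HoxD gave 1 call in the comparisons of a knockdown with the controls. With induction 4 of its 7 tested members fell, and the median log2 change was -0.52. Hoxd8 had 17.6, 20.4 and 24.8 CPM in the uninduced cells, 13.8, 14 and 12.4 in the controls, 13.8, 13.9 and 13.8 in the Trim28 knockdown and 15.4, 13.9 and 13.2 in the double knockdown. All 9 induced libraries lay below the uninduced ones (-0.64 ± 0.12 with induction, adjusted p = 1.46e-04). Hoxd13, which forms the digits together with Hoxa13, had 6.87, 6.49 and 6.73 CPM in the uninduced cells and 4.33, 4.54 and 5.11 in the controls. It had 5.40, 6.56 and 7.18 CPM in the Trim28 knockdown and 6.41, 5.74 and 5.03 in the double knockdown. The Trim28 knockdown lay above the controls and overlapped the uninduced cells, and the double knockdown overlapped the controls at its lowest library. Hoxd13 fell with induction (-0.52 ± 0.14, adjusted p = 0.00477) and rose in the Trim28 knockdown (0.45 ± 0.14, adjusted p = 0.0306). That rise did not pass in DESeq2 (adjusted p = 0.0516), with only the compared groups in the fit (0.064), without replicate 1 or 2 of the controls (0.0995 and 0.066), or without replicate 2 or 3 of the knockdown (0.101 and 0.157).

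Hoxd9 had 7.87, 7.78 and 10.1 CPM in the uninduced cells, 8.30, 5.59 and 6.36 in the controls, 8.06, 6.56 and 8.35 in the Trim28 knockdown and 8.12, 7.53 and 7.36 in the double knockdown. The groups overlapped in all 4 comparisons, and its change with induction did not pass (-0.33 ± 0.16, adjusted p = 0.0699). It passed without replicate 1 of the controls (-0.50, adjusted p = 0.0113) and with a replicate block (-0.35, adjusted p = 0.045). Hoxd10 and Hoxd12, limb genes, fell by 0.52 and 1.01, the latter from only 0.786 ± 0.176 CPM. Hoxd4 and Hoxd11 did not pass in any comparison, though Hoxd11 passed with induction without replicate 3 of the uninduced cells (-0.73, adjusted p = 0.0363) or replicate 2 of the controls (-0.76, adjusted p = 0.0351). For the double knockdown edgeR called 0 of the 7 HoxD members, with 0 at an unadjusted p under 0.05 and 0 in DESeq2 and limma-voom, and the log2 changes lay between 0.04 and 0.29.

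Taken by position in the clusters, the calls and median changes with induction did not follow the 3' to 5' order, and no test of position was made. A fall was called in 3 of the 5 tested members of paralogue groups 1 to 3, 12 of the 15 of groups 4 to 8 and 10 of the 14 of groups 9 to 13, with median log2 changes of -0.58, -0.64 and -0.57. The shares of these 3 classes in the Hox total shifted by a few percentage points. Groups 9 to 13 made up 41.1% to 43.0% of Hox CPM in the uninduced libraries and 44.9% to 46.1% in the induced controls. Groups 4 to 8 made up 47.4% to 48.7% and 44.2% to 46.6%, also without overlap, and the shares of groups 1 to 3 overlapped. The share of HoxB was 29.5% to 32.8% in the uninduced cells, 26.2% to 27.9% in the controls, 27.6% to 28.8% in the Trim28 knockdown and 34.1% to 34.8% in the double knockdown, so that the double knockdown lay above every other library. The share of HoxA was 25.46% to 27.96% in the uninduced cells, 32.0% to 34.6% in the controls and 26.7% to 27.2% in the double knockdown. The double knockdown thus lay within the uninduced range. Shares add up to the whole, so a larger HoxB share lowers that of the other clusters together. In CPM, the HoxA sum of the double knockdown (84.2 to 93.4) overlapped the controls (86.5 to 98.9).

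Few of the other genes inside the clusters had enough reads to test. Of 25 rows of the table that overlap the clusters and are not members, 9 were tested. With induction 4 of these fell and 0 rose, where 32.6% of all genes tested fell and 32.7% rose. Hoxb5os, a transcript antisense to the Hoxb5 and Hoxb6 region, had 38, 39 and 35 reads in the uninduced libraries, 18, 7 and 12 in the controls, 9, 13 and 7 in the Trim28 knockdown and 27, 20 and 22 in the double knockdown. The double knockdown lay above the controls and below the uninduced cells. Its log2 change was -1.66 ± 0.27 with induction (adjusted p = 4.48e-05), 0.81 ± 0.29 in the double knockdown (adjusted p = 0.0405) and 1.16 ± 0.31 between the double and the Trim28 knockdown (adjusted p = 0.0128). Gm53, a predicted coding gene in HoxB, and Hoxaas2 in HoxA fell with induction by 0.97 and 1.42. Of 11 tested coding genes within 200 kb of a cluster, 4 rose and 3 fell with induction, shares near those of all genes tested (32.7% and 32.6%). Calcoco2, an autophagy receptor gene near HoxB, rose from 0.0216 ± 0.0374 CPM, a single read, to 9.12 ± 0.656 CPM and fell to 2.44 ± 0.396 CPM in the double knockdown (-1.90 ± 0.16 on the log2 scale, adjusted p = 1.91e-07). Igf2bp1, an RNA-binding protein gene near HoxB, rose with induction by 1.27 ± 0.074 and fell in the double knockdown by 0.43 (SE 0.071). Snf8, a gene of endosomal sorting near HoxB, rose in the double knockdown by 0.26 ± 0.072 (adjusted p = 0.01). Called neighbours of HoxB thus moved in both directions.

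The partners and regulators of Hox genes did not share a single direction. Their counts are to be read against all genes tested, of which 32.7% rose and 32.6% fell with induction and 18.1% rose and 18.6% fell in the double knockdown. Of 11 genes of the TALE homeobox class, to which the Meis cofactors of Hox proteins belong, 7 fell and 3 rose with induction. Meis2 (-0.90 ± 0.084) and Meis3 (-1.26 ± 0.11) fell. Tgif2, which is of this class but is not counted here as a Hox cofactor, rose (2.31 ± 0.10). Meis3 rose in the double knockdown by 0.87 ± 0.11 (adjusted p = 1.45e-05), and Tgif2 fell by 0.45. Of 26 Polycomb genes, 12 rose and 8 fell with induction. Cbx2, a chromobox subunit, rose by 2.02 ± 0.13, and Phc1 and Jarid2 by 1.08 and 0.98. In the double knockdown 10 Polycomb genes fell and 2 rose, among the falls Cbx2 (-0.97 ± 0.12), Phc1 (-0.53) and Jarid2 (-0.47). Of 17 trithorax genes, 12 rose and 0 fell with induction. Among the rises were the core subunit genes Dpy30 (1.70 ± 0.13) and Wdr5 (1.02 ± 0.080). In the double knockdown 5 of the 17 fell and 0 rose, with Kdm6a, a histone H3 lysine 27 demethylase, at -0.37 ± 0.071.

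Of the genes for retinoic acid, a signal that activates Hox genes in embryos, 15 were tested. With induction 7 rose and 1 fell, where 32.7% of all genes tested rose and 32.6% fell. The synthesis enzyme genes Aldh1a3 and Aldh1a1 rose by 4.11 ± 0.21 and 2.42 ± 0.15, and the receptor gene Rxra fell by 0.76. In the double knockdown 4 rose and 4 fell, where 18.1% of all genes tested rose and 18.6% fell. Aldh1a3 changed by -1.58 ± 0.15 and Aldh1a2, another synthesis enzyme gene, by 0.85 ± 0.23. Of 12 ParaHox, Evx and related genes only 2 passed the filter. Meox1, a somite homeobox gene, fell in the Trim28 knockdown by 1.67 (SE 0.47, adjusted p = 0.0162) and in the double knockdown by 2.62 (SE 0.54, adjusted p = 0.00126).

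Other transcription factors of body position lie outside the Hox clusters. Of 31 tested T-box, Msx and similar genes of limb and body wall, 21 fell and 1 rose with induction (32.6% and 32.7% of all genes), with a median log2 change of -0.71. Emx2 fell by 1.39 (SE 0.14), Msx2 by 1.52 (SE 0.18) and Prrx1, which is also in the fibroblast list, by 0.95 (SE 0.094), and Foxd1 rose by 0.30 (SE 0.10). Against the controls, 9 of the 31 rose and 4 fell in the double knockdown (18.1% and 18.6% of all genes). Msx2 and Emx2 rose by 1.03 ± 0.18 and 0.90 ± 0.14, and Foxd1 fell by 1.00 (SE 0.11).

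Markers of cell type also changed in these comparisons. Of all genes tested, 32.7% rose and 32.6% fell with induction. These shares were 13.1% and 11.8% in the Trim28 knockdown and 18.1% and 18.6% in the double knockdown. Of 10 fibroblast markers, 8 fell with induction, and their summed level went from 39231 to 46078 CPM in the uninduced libraries to 22701 to 30773 in the induced controls, with none at 0 in any group. All 7 epithelial markers rose, from sums of 23.2 to 25.8 CPM to 1757 to 2222, and all 6 pluripotency markers rose, from 0.125 to 0.647 CPM to 57.8 to 76.8. In the uninduced cells Esrp1, Zfp42, Tdh and Utf1 had no read. In the Trim28 knockdown, against the induced controls, 4 fibroblast markers rose and 4 fell. There 3 epithelial and 4 pluripotency markers fell, with 0 rises. The pluripotency sum of the Trim28 knockdown, 41.3 to 50.1 CPM, lay below every control, and its fibroblast and epithelial sums overlapped the controls. In the double knockdown, against the induced controls, 5 fibroblast markers rose (Thy1 by 0.71, Twist1 by 0.63 and Twist2 by 1.02 among them) and 2 fell, with Col3a1 at -1.04. All 7 epithelial markers fell, to sums of 998 to 1240 CPM, and 5 of 6 pluripotency markers fell, to 21.4 to 33.0 CPM. The fibroblast sum of the double knockdown, 26914 to 30484 CPM, overlapped that of the controls. Replicate 1 of the controls, which had the highest sum of its group in every Hox cluster, also had the group's highest fibroblast sum (30773 CPM) and lowest epithelial sum (1757 CPM). Sums of the other marker lists were higher after induction too, without overlap, though not every member rose. Of 3 tested endothelial markers 2 rose and Kdr fell (-1.47 ± 0.20). Of 3 tested macrophage markers 2 rose and Lyz2 fell (-1.40 ± 0.30), and of 4 tested neural markers 3 rose. The endothelial sum went from 11.5 to 12.4 CPM in the uninduced cells to 43.0 to 56.8 in the controls, the macrophage sum from 7.12 to 8.10 to 13.4 to 18.1, and the neural sum from 236 to 271 to 337 to 429. In the double knockdown these sums were 42.5 to 50.7, 7.59 to 9.06 and 427 to 484 CPM. The part of these cell markers in the Hox changes was not tested.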

How the data were processed

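Whole-number read counts per gene were used as the authors deposited them, for 12 libraries and 24207 genes. Per the submitters' processing notes, reads were handled with TopHat2 2.0.12, Bowtie 1.1 and HTSeq. The genome build and the counting strand are not given in the sources used here. In GENCODE vM21 (GRCm38), 23882 of the identifiers were found, and all 39 Hox genes lay at an overlapping place. Its merged exons gave the lengths for CPM per kilobase.

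Genes kept by filterByExpr (minimum count 10, minimum total 15; 14520 genes) went into the quasi-likelihood test of edgeR 4.0.16 (R 4.3.3) with TMM factors, 1 term per group over all 12 libraries, Benjamini-Hochberg adjustment, threshold 0.05. The scripts were tested on simulated data. Alternatives were RLE and upper-quartile scaling, no filter, a minimum count of 50, DESeq2 1.42.0, limma-voom (limma 3.58.1), only the compared groups, a replicate block, and leaving out each library in turn. An SE was taken as the log2 change over the square root of the F statistic.

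The members and gene lists were chosen with earlier results of these data known. Values per library are given for the 3 members of each cluster with the highest mean CPM and, in each comparison and cluster, for the called member with the smallest p in each direction. From the other lists come the called members with the smallest p, up to 3 in the direction of most calls and 1 in the opposite one, and not every such member is named. Some genes are not reported here.

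Counts of replicates differed beyond sampling noise (chi-square divided by its degrees of freedom, 1.96 to 18.8), so none was counted as a copy. Libraries with the same replicate number in the titles were checked for shared deviations from their group means. Over 18 pairs the correlation ran from -0.384 to 0.404. Only the double knockdown and the induced controls had all 3 pairs above 0.1 (0.404, 0.220 and 0.317), so the numbers were taken as pairing for that comparison alone, from the data and not from the design. The main fit held no replicate term, so its p-values do not use this pairing. The replicate block was an alternative, with its terms over all 4 groups. Outliers were not looked for in groups of 3.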

Additional observations from a re-analysis of the deposited data

How the results depend on the processing

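No called Hox gene changed sign in any of the 20 alternatives, and 21 of 26 induction calls, 6 of 10 calls of the double knockdown, 3 of 4 calls between the knockdowns and 0 of 3 calls of the Trim28 knockdown passed in all that tested them. Falls in the double knockdown numbered 2 in place of 1 with RLE scaling, upper-quartile scaling and DESeq2, as Hoxc4 passed. Rises in the Trim28 knockdown numbered 1 in place of 2 with upper-quartile scaling, DESeq2 and only the compared groups, and that last setting left 0 falls in place of 1. Falls with induction numbered 22 to 25 with other scaling, filters, DESeq2, limma-voom and only the compared groups, and that last setting left 8 rises in the double knockdown in place of 9, without Hoxc8. In limma-voom Hoxc5 was added to the rises in the double knockdown (adjusted p = 0.0497, against 0.0577 in the main fit). Hoxc5 also passed there without replicate 1 of the induced controls (0.0341). Between the knockdowns, Hoxb3 was added to the rises with no filter (0.0381) and with only the compared groups (0.0102). With no filter on low counts, rises with induction numbered 2, as Hoxd1 was tested (adjusted p = 0.0459, 6 reads against 0). Leaving out 1 library gave 20 to 25 falls and 1 rise with induction, 0 to 2 rises and 0 to 1 falls in the Trim28 knockdown, 6 to 9 rises and 1 fall in the double knockdown, and 2 to 3 rises and 1 fall between the knockdowns. Without replicate 1 of the induced controls the 2 rises of the Trim28 knockdown were Hoxb9 and Hoxc6, not Hoxa9 and Hoxd13.

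With a replicate block, 26 members fell and 1 rose with induction (Hoxd9 was added, adjusted p = 0.045), 3 rose and 1 fell in the Trim28 knockdown (Hoxc6 was added, 0.0421), 9 rose and 1 fell in the double knockdown, and 3 rose and 1 fell between the knockdowns. In the double knockdown, where the numbers were taken as pairing, the block changed no call. The low members limit what can be read: 5 were not tested, and changes of the tested members with a mean under 1 CPM in the controls carried SEs of 0.29 to 0.42. Such limits cover counting and the spread of 3 libraries only.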
